A study of Mus musculus with 3 samples.

Results

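Proteasome subunit genes were taken from the GENCODE M1 annotation of mouse build mm9 as the protein-coding genes with more than 1 exon whose symbol runs from *Psma* to *Psmg* and continues with a digit. This rule gave 48 of 19449 genes, among them the 3 immunoproteasome genes *Psmb8*, *Psmb9* and *Psmb10*. *Psmb11* and *Psme2b-ps*, which have 1 exon, were left out. The symbol alone also admits *Psmc3ip*, whose product works in meiotic recombination and is not part of the proteasome, and *Psma8*, which encodes the testis form of an alpha subunit. Without these 2 genes the share of FLI1-called promoters described below was 36 of 46 (78.3%).

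The cells were megakaryocytes (MKs), the cells that release platelets, grown from livers of wild-type CD1 mouse embryos for 5 days in thrombopoietin. Binding of FLI1 and RUNX1 was measured by ChIP-seq, in which DNA crosslinked to a factor is precipitated with an antibody and sequenced, and chromatin that was not precipitated (input) served as the background. There is 1 FLI1, 1 RUNX1 and 1 input library. All 3 come from the same kind of cells and carry no allele or treatment other than the culture, and DNA from at least 3 replicates by the labels, or precipitates by the methods, was pooled for sequencing, so the spread between them cannot be seen. The labels give embryonic day 15 and the study's methods a day earlier, and the methods describe an input digested with micrococcal nuclease where the labels speak of sonication.

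The proteasome is the main protease of the cytosol and nucleus and degrades proteins tagged with ubiquitin. Its core particle is a stack of outer alpha rings (*Psma* genes), which gate the entry, and inner beta rings (*Psmb* genes), which hold the catalytic sites. A regulatory particle of ATPases (*Psmc*) and other subunits (most *Psmd* genes) binds, unfolds and feeds in the substrate, while activators (*Psme*), an inhibitor (*Psmf1*) and assembly chaperones (*Psmg*) act on the core. In cells exposed to interferon the catalytic subunits encoded by *Psmb5*, *Psmb6* and *Psmb7* are replaced by those of *Psmb8*, *Psmb9* and *Psmb10*, which shifts the peptides made toward those presented on MHC class I. FLI1 belongs to the ETS family, whose members bind a GGAA core, and RUNX1 is a runt-domain factor; loss of either lowers platelet numbers.

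The DNA under the FLI1 maximum, the base within 1 kb of the transcription start site (TSS) covered by most FLI1 fragments, is shown for the 3 members with the highest FLI1 ratio. Bases are in mm9, read on the strand of the gene, and capitals mark CCGGAA or CAGGAA, or their reverse complements, the ETS forms searched for here. Exon bases more than 30 bases past the TSS are left out, except around the ETS form of *Psmb7*.

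Psmc1 (chr12:101348276-101348426, plus strand): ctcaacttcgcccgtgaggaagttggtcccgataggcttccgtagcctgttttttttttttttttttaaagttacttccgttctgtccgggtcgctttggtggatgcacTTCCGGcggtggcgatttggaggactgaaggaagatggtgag

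Psmc2 (chr5:21291016-21291131, plus strand): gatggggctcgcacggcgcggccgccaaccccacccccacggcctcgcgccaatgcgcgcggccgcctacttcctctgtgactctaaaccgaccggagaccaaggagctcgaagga

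Psme4 (chr11:30671631-30671756, plus strand): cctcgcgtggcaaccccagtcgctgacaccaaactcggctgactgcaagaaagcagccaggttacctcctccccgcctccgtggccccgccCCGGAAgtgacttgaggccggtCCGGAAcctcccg

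The maximum lay 45 bases upstream of the TSS at *Psmc1*, 10 upstream at *Psmc2* and 20 upstream at *Psme4*, under 164, 149 and 148 FLI1 fragments. *Psme4* held 2 copies of CCGGAA, *Psmc1* held 1, and the stretch printed for *Psmc2* held neither of the forms searched for. The catalytic genes are shown next, since the constitutive and the interferon-induced forms are compared below.

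Psmb6 (chr11:70338736-70338886, plus strand): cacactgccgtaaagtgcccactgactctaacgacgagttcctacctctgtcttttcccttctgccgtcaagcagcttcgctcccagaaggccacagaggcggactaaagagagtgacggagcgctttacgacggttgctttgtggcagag

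Psmb5 (chr14:55237113-55237263, minus strand): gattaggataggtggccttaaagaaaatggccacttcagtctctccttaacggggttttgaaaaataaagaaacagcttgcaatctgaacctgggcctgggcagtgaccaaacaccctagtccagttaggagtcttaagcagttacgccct

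Psmb8 (chr17:34334549-34334696, plus strand): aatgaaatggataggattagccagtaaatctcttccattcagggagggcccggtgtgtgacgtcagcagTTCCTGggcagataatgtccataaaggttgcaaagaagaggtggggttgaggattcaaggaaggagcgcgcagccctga

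Psmb10 (chr8:108461492-108461578, minus strand): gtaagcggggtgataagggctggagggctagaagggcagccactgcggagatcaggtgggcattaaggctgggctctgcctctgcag

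Psmb7 (chr2:38499468-38499497, minus strand): tctctcgcggcgCCGGAAgtgctaagttct

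For *Psmb7* the maximum fell in the gene's exon, 118 bases past the TSS, and only the 30 bases around the ETS form are printed. At *Psmb9* it lay in an exon, 355 bases past the TSS, and no sequence is given. *Psmb8* has its maximum 42 bases upstream with 26 fragments over a CAGGAA, and that of *Psmb10* lay 728 bases downstream in an intron with 24 fragments.

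After removal of mitochondrial reads and of repeated input positions, 62946422 FLI1 reads, 3973856 RUNX1 reads and 21745220 input reads remained. The study lists more unique tags for both factors than the files used here hold, by a small margin for FLI1 and a large one for RUNX1. The RUNX1 file may thus be part of that library, and all counts given here rest on these reads alone. FLI1 and RUNX1 reads were 50 bases long and input reads 34. Each read was placed at the centre of its fragment and counted within 1 kb of the TSS (promoter) and from 20 kb before to 20 kb after the gene (territory), and a ratio is the share of a ChIP library's reads divided by that of the input. Intervals of ratios are exact 95% intervals and cover counting error only. Those of a share of members are exact 95% binomial intervals that treat the genes as independent draws, which they are not. A gene was called when its ratio was at least 2 with a lower bound above 1. Marker genes check the cells' label only through FLI1 binding. Of 13 MK markers 10 were called, led by the platelet integrin gene *Itga2b* at 8.84-fold, against 40.4% of all genes. *Ppbp* (1.01), *Vwf* (0.872) and *Selp* (0.786) were not. Called too were 1 of 4 erythroid markers (*Epor*, 3.83), 2 of 6 granulocyte and monocyte markers (*Mpo*, 4.78, and *Lyz2*, 2.31) and 0 of 4 lymphoid ones. These lists are too short to set apart from the share of all genes.

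Most proteasome promoters carried FLI1. FLI1 was called at 38 of 48 promoters (79.2%), against 40.4% of the 18639 genes with at least 5 input reads. The count depends on depth and reference, with 25 of 48 (30.7% of all genes) once FLI1 was thinned to the RUNX1 depth, and 6 of 39 (11.3%) with RUNX1 in place of the input. The median FLI1 ratio was 3.19 in the subunit genes and 1.59 in all genes. Above 1 lay 46 of 48 members and 13242 of the 18639 genes. With RUNX1 in place of the input the members' median was 1.43. Scaled to library size (RPM, the usual unit for reads scaled to depth), the median member had 2.88 RPM in the FLI1 library, 2.01 in the RUNX1 library and 0.943 in the input, where the median of all genes had 1.27, 1.26 and 0.874. The input was therefore at a like level in both sets, while FLI1 and RUNX1 were both higher in the subunit genes.

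**Figure D1:**
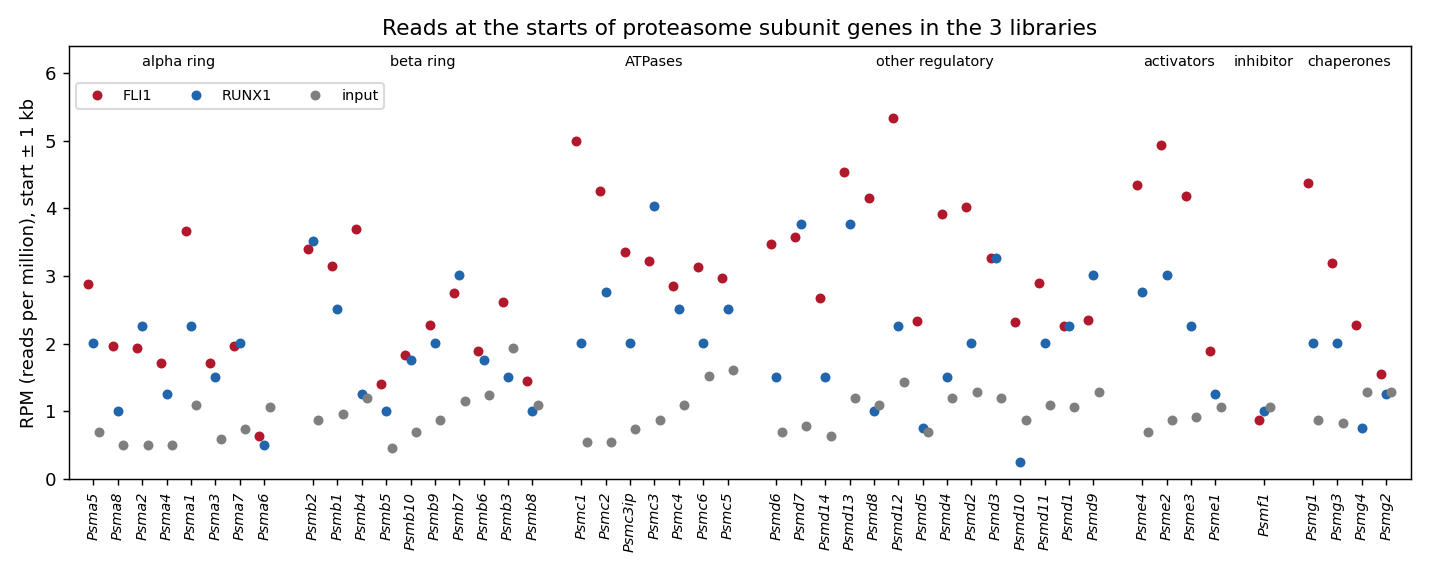
RPM within 1 kb of the TSS (vertical axis) for each of the 48 genes, grouped by role, in the FLI1, RUNX1 and input libraries (1 point per library). FLI1 runs from 0.635 at Psma6 to 5.34 at Psmd12, and input stays between 0.46 and 1.93.

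FLI1 was frequent at CpG-rich promoters in general, and 25 of 48 members (52.1%, 95% interval 37.2 to 66.7) have one, near the 42.3% of all genes. CpG-rich here means a GC content of at least 55% and an observed-to-expected CpG ratio of at least 0.6 within 500 bp of the TSS, a class added after the data were seen. Of genes with such promoters 62.6% were called, with a median of 2.53. Among the members, 23 of 25 CpG-rich promoters (92%) were called with a median of 3.39, and 15 of 23 others (65.2%) with a median of 2.65. Of all genes without such promoters, 23.3% were called, with a median of 1.11. The members thus stood above all genes in both classes, but the classes do not match them for CpG content. Some members outside the CpG-rich class missed it on GC content alone. Among them were *Psmc1* (GC 50.6%, CpG ratio 0.938) and *Psmc2* (52.9%, 0.841), both called. How far CpG content accounts for the gap was not tested. Against the flanks of the same library, from 2 to 10 kb to either side of the TSS, 39 of 48 members were called where 36.6% of all genes were. Summed over the members, the input's ratio to its own flanks was 0.981, with single members from 0.468 at *Psmb5* to 2.25 at *Psmb3*. The sources differ on how the input was fragmented. It thus cannot show what sonicated chromatin without an antibody gives at these starts. Of the 38 members with no other gene start within 1 kb, 30 (78.9%) were called, and of the 10 that share their window with another start 8 (80%).

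**Figure D2:**
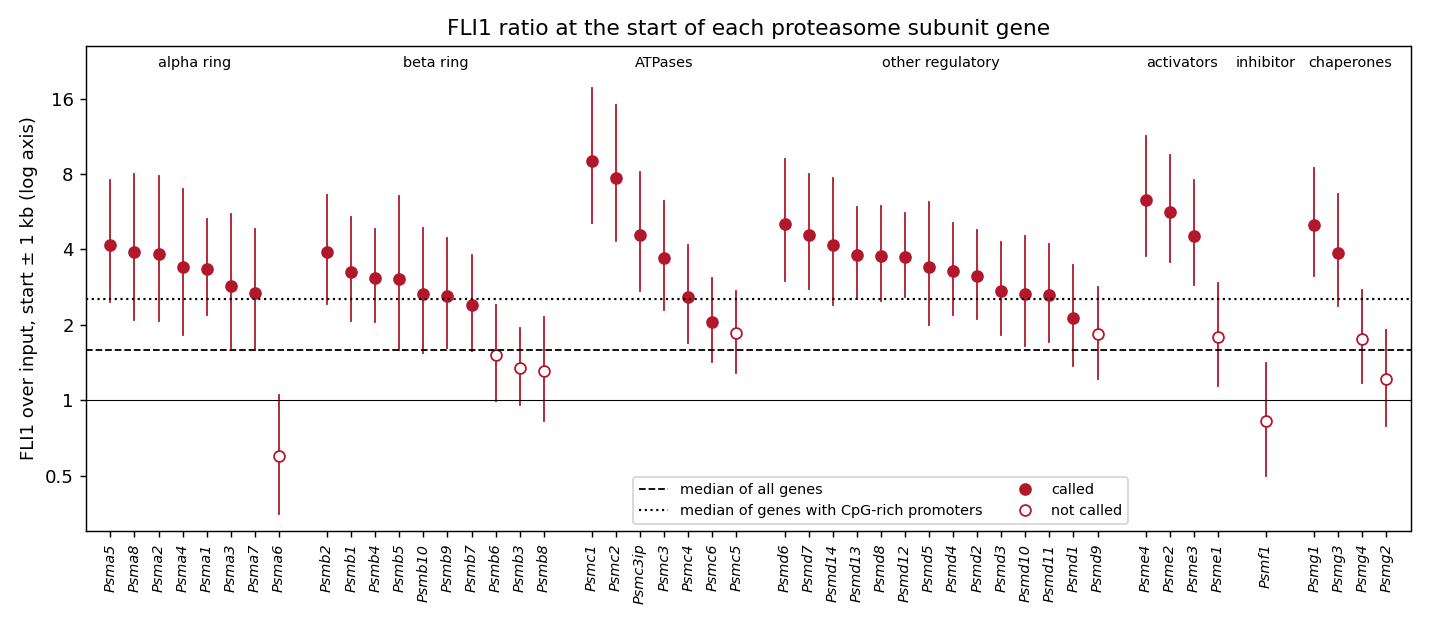
FLI1 over input within 1 kb of the TSS on a log axis, with exact 95% intervals that cover counting error, for each gene by role. Filled points are called and open points are not, the dashed line is the median of all genes (1.59) and the dotted line that of genes with CpG-rich promoters (2.53). The highest points are the ATPase genes Psmc1 and Psmc2 and the lowest is Psma6.

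The alpha ring genes had a median FLI1 ratio of 3.36, and 7 of 8 were called. *Psma5* led with 181 FLI1, 8 RUNX1 and 15 input reads, a FLI1 ratio of 4.17 (2.46 to 7.6). At *Psma6* the annotated TSS at the 5′ end of the gene held 40 FLI1, 2 RUNX1 and 23 input reads, a FLI1 ratio of 0.601 (0.351 to 1.05), the lowest of all members. *Psma6* stood alone in this ring, since the other 7 lay between 2.68 and 4.17. The testis gene *Psma8* was not lower than the general subunits, at 3.89 (2.1 to 8).

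In the beta ring 7 of 10 genes were called, with a median of 2.62. *Psmb2*, a structural subunit of the ring, was highest with 214 FLI1, 14 RUNX1 and 19 input reads and a FLI1 ratio of 3.89 (2.43 to 6.59). The 3 that were not called were *Psmb8*, *Psmb6* and *Psmb3*. *Psmb3* held 164 FLI1 reads, near the ring's median of 154, but also 42 input reads, the most of any member, and its ratio was 1.35 (0.956 to 1.94). Against its own flanks its FLI1 ratio was 2.55.

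The ATPase genes held the 2 highest ratios. *Psmc1* had 314 FLI1, 8 RUNX1 and 12 input reads, a FLI1 ratio of 9.04 (5.1 to 17.7) at the 98.8th percentile of all genes. *Psmc2* had 268, 11 and 12 reads and a FLI1 ratio of 7.72 (4.34 to 15.1), and its window is shared with the divergent start of *Dnajc2*. Their intervals overlap, so their order is not resolved at this depth. *Psmc5* was lowest, with 187 FLI1, 10 RUNX1 and 35 input reads and a FLI1 ratio of 1.85 (1.28 to 2.73), below the interval of *Psmc1*. With *Psmc3ip* counted in, 6 of 7 *Psmc* genes were called, with a median of 3.69.

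Of the *Psmd* genes, grouped by symbol alone with the regulatory particle, 13 of 14 were called, with a median of 3.33. *Psmd6*, a subunit of the particle's lid, had 219 FLI1, 6 RUNX1 and 15 input reads and a FLI1 ratio of 5.04 (2.99 to 9.17). *Psmd12*, also of the lid, had the most FLI1 reads of any member, 336, beside 9 RUNX1 and 31 input reads, and a ratio of 3.74 (2.59 to 5.6). *Psmd14*, the enzyme that removes ubiquitin from substrates, stood at 4.15 (2.4 to 7.75), and *Psmd4*, a receptor for ubiquitin chains, at 3.28 (2.19 to 5.12). The uncalled gene was *Psmd9*, an assembly factor, with 148 FLI1, 12 RUNX1 and 28 input reads and a FLI1 ratio of 1.83 (1.21 to 2.84).

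The activators had the highest median of the role groups, 5.1, with 3 of 4 called. *Psme4*, the large nuclear activator, held 274 FLI1, 11 RUNX1 and 15 input reads, a FLI1 ratio of 6.31 (3.76 to 11.4). *Psme2* held 311, 12 and 19 reads at 5.65 (3.56 to 9.52), but its FLI1 maximum lay 632 bases upstream, by the divergent start of *Rnf31*. The product of *Psme1* forms a ring with that of *Psme2* and both are induced by interferon, yet *Psme1* was not called, with 119 FLI1, 5 RUNX1 and 23 input reads and a FLI1 ratio of 1.79 (1.14 to 2.93). The intervals of *Psme1* and *Psme2* do not overlap.

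*Psmf1*, the gene of the inhibitor, had 55 FLI1, 4 RUNX1 and 23 input reads at its 5′ TSS and a FLI1 ratio of 0.826 (0.499 to 1.41). Of the assembly chaperone genes, which pair alpha subunits, 2 of 4 were called, with a median of 2.81. *Psmg1* had 275 FLI1, 8 RUNX1 and 19 input reads and a FLI1 ratio of 5 (3.14 to 8.43). Its partner *Psmg2* had 98, 5 and 28 reads and a FLI1 ratio of 1.21 (0.788 to 1.91), with an interval wholly below that of *Psmg1*.

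The 2 members with a ratio under 1, *Psma6* and *Psmf1*, each have other annotated starts inside the gene, and FLI1 was found near some of them. These starts were picked out after their values were seen. At *Psma6* a TSS lies 14553 bases downstream, and within 1 kb of it 396 FLI1, 19 RUNX1 and 14 input reads were counted. The FLI1 ratio there was 9.77 (5.75 to 18), and the RUNX1 ratio 7.43 (3.53 to 16). No 5′ TSS of the 48 genes held as many FLI1 or RUNX1 reads. At *Psmf1* a TSS 2876 bases downstream held 241 FLI1, 6 RUNX1 and 23 input reads, a FLI1 ratio of 3.62 (2.36 to 5.82). No other protein-coding gene starts within 1 kb of either site. Of the 48 genes, 28 have some annotated TSS more than 1 kb from the 5′ one, 66 starts in all. Of the 65 with a ratio, 5 (7.69%), in 3 genes, were called for FLI1, where 13.3% of such starts of all genes were. They are a pair close together in each of *Psma6* and *Psmf1*, and a start of *Psmd11* 1272 bases downstream at 3 (1.78 to 5.4). The remaining inner starts of *Psma6*, at 1.24 (0.715 to 2.26), and of *Psmf1*, at 1.38 (0.775 to 2.62) and 0.823 (0.485 to 1.44), were not called. RNA was not measured in these libraries, so which start the MKs used was not tested.

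The stretches at these inner starts are printed beside that at the 5′ TSS of *Psma6*, where the maximum held only 6 fragments.

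Psma6, inner start (chr12:56499697-56499792, plus strand): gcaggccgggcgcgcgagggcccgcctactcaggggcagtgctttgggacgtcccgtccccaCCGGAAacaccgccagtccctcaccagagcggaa

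Psmf1, inner start (chr2:151567016-151567138, minus strand): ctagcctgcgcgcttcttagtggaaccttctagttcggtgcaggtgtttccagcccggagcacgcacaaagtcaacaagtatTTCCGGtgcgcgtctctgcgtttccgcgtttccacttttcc

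Psma6, 5′ start (chr12:56485315-56485456, plus strand): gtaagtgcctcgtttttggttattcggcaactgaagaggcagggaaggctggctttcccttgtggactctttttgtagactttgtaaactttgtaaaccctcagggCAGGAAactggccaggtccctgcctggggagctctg

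The FLI1 maximum lay 10 bases past the inner start at *Psma6*, under 198 fragments, and 17 bases upstream of that at *Psmf1*, under 124. Each stretch holds 1 copy of CCGGAA in either orientation. The stretch at the 5′ TSS of *Psma6* is intronic and holds a CAGGAA.

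The interferon-induced catalytic genes were set beside the constitutive ones that they replace. *Psmb8*, which replaces *Psmb5*, had 91 FLI1, 4 RUNX1 and 24 input reads and a FLI1 ratio of 1.31 (0.828 to 2.15). *Psmb5* itself had nearly the same FLI1 count, 88, with 4 RUNX1 and 10 input reads, which gave 3.04 (1.58 to 6.56). The gap between their ratios thus lay in the input reads. Against its own flanks FLI1 stood at 1.3 for *Psmb8*, whose flanks reach into the promoter window of *Psmb9*, and 1.93 for *Psmb5*.

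*Psmb9*, which replaces *Psmb6* and shares its promoter with the divergent peptide transporter gene *Tap1*, had 143 FLI1, 8 RUNX1 and 19 input reads and a FLI1 ratio of 2.6 (1.61 to 4.45). *Psmb6* was lower, with 119, 7 and 27 reads and a FLI1 ratio of 1.52 (0.996 to 2.41). *Psmb10* had 115 FLI1, 7 RUNX1 and 15 input reads at 2.65 (1.54 to 4.89), and its counterpart *Psmb7* 173, 12 and 25 reads at 2.39 (1.57 to 3.8). The intervals within each of the 3 exchanged pairs overlap. Summed over 3 genes each, the FLI1 ratio was 2.08 (1.57 to 2.79) for the immunoproteasome genes and 2.12 (1.62 to 2.82) for the constitutive ones, a quotient of 0.982 (0.655 to 1.47). A difference of up to about that interval was not detectable at this depth. With FLI1 flanks in place of the input the quotient was 0.839 (0.71 to 0.992). The flanks of *Psmb8* and *Psmb9*, however, each take in part of the other's promoter window. Both trios lay below the summed ratio of the 45 members other than the immunoproteasome genes, which include the constitutive trio, at 3.08 (2.88 to 3.29).

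FLI1 was concentrated just before the TSS. In the 100 bases upstream of it the members averaged 0.625 FLI1 RPM against 0.242 in all genes, and in the first 100 bases downstream 0.485 against 0.182. At 900 to 1000 bases upstream the averages were 0.0626 and 0.0551. RUNX1 averaged 0.204 against 0.119 in the 100 upstream bases, and input 0.0383 against 0.0406. The FLI1 maximum lay within 100 bp of the TSS in 29 of 48 members (60.4%) and in 33% of all genes, and within 250 bp in 39 members (81.2%) and 50.4%. In FLI1-called genes these shares were 48.3% and 69.5%, inside the members' intervals (45.3 to 74.2 and 67.4 to 91.1).

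**Figure D3:**
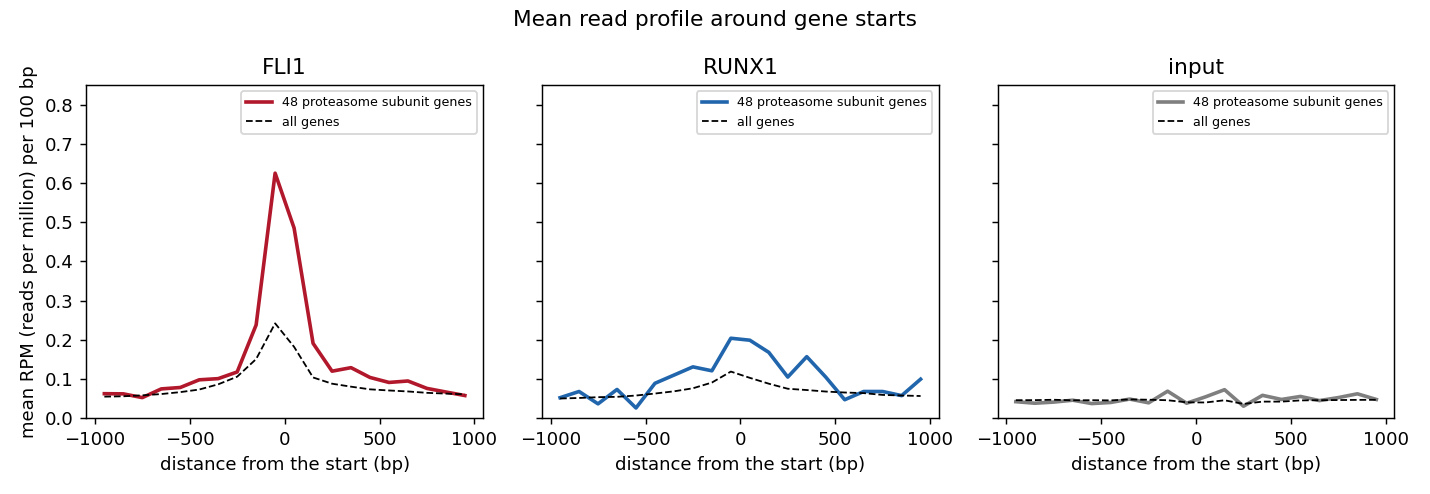
Mean RPM per 100 bp (vertical axis) against the distance from the TSS (horizontal axis) in the FLI1, RUNX1 and input libraries. Solid lines are the 48 proteasome subunit genes and dashed lines all genes. The FLI1 mean of the members reaches 0.625 just upstream of the TSS, and the input lines lie together.

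Within the whole territory, the 200-bp window with the most FLI1 reads lay within 1 kb of the 5′ TSS in 27 of 48 members (56.2%, 95% interval 41.2 to 70.5), as it did in 24.5% of all genes, 35.9% of those with CpG-rich promoters and 52.7% of FLI1-called genes. In 2 members (4.17%), *Psma6* and *Psmf1*, it was at the inner start, as in 2.71% of all genes. In 9 members (18.8%) it was at the start of another gene, near the 19.2% of all genes. *Psme1* is among these 9, with its window 35 bases from the start of *Rnf31*. *Psme2* is among the 27, although its window lay 578 bases upstream of its TSS, 17 bases from that same *Rnf31* start. The windows of *Psme1* and *Psme2* overlap. In 10 (20.8%) it was at no protein-coding start, a class that held 53.6% of all genes. At *Psmb1* the window lay 1595 bases upstream, 17 bases from the start of *Tbp*, with 228 FLI1, 0 RUNX1 and 2 input reads. Near *Psmc3* it lay 669 bases from the start of *Sfpi1*, the gene of another ETS factor, with 245 FLI1, 6 RUNX1 and 3 input reads. None of the 3 immunoproteasome genes had it at the TSS (95% interval 0 to 70.8%), but neither did *Psmb1*, *Psmb3* and *Psmb5* of the same ring. *Psmb10* had it in an intron 1264 bases past the TSS, just outside the promoter window, with 125 FLI1, 2 RUNX1 and 5 input reads, and at *Psmb8* and *Psmb9* it was 13050 and 22515 bases downstream.

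RUNX1 was called at 16 of 48 promoters (33.3%), against 18% of all genes and 31% of those with CpG-rich promoters. The count depends on the rule, with 9 (12.9% of all genes) at a ratio of at least 3 and 29 (30.8%) without the condition on the lower bound. The median RUNX1 ratio was 2.29 in the members, 1.37 in all genes and 1.93 in CpG-rich ones. Within classes, RUNX1 was called at 9 of 25 members with CpG-rich promoters (36%), near the share of all such genes. Among members without, 7 of 23 (30.4%) were called, where 7.93% of all genes without such promoters were. Some of these 7, such as *Psmc1* and *Psmc2*, missed the CpG-rich class on GC content alone. At this depth FLI1 itself was called at 25 members. A member's promoter held between 1 and 16 RUNX1 reads, so that single ratios were loose. *Psmc2* was highest at 5.02 (2.01 to 12.4), and *Psmc3*, with the most RUNX1 reads, had 203 FLI1, 16 RUNX1 and 19 input reads, a RUNX1 ratio of 4.61 (2.22 to 9.46). By role, RUNX1 was called at 4 of 7 *Psmc* genes, 4 of 14 *Psmd* genes, 3 of 8 *Psma*, 3 of 10 *Psmb*, 2 of 4 *Psme* and 0 of 4 *Psmg* genes, and not at *Psmf1*.

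Summed over the members, 8841 FLI1, 379 RUNX1 and 1012 input reads gave 3.02 (2.83 to 3.22) for FLI1 over input, 2.05 (1.82 to 2.31) for RUNX1 over input and 1.47 (1.33 to 1.64) for FLI1 over RUNX1. In all genes the same sums gave 1.94, 1.53 and 1.27. Promoters rich in FLI1 tended to be those with more RUNX1 reads, with Pearson's r = 0.51 and Spearman's rho = 0.55 across the 48 genes. Across all genes these were 0.34 and 0.65. The genes are not independent replicates, and they share the libraries, the window and much of their base composition. FLI1 and input reads of the members gave r = 0.084 and rho = 0.12.

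Over the whole territory the ratios of both factors lay near 1. The FLI1 territory ratio had a median of 1.07 in the members (range 0.81 to 1.55) and 0.966 in all genes, with 0 of 48 members called and 0.109% of all genes. For RUNX1 the median was 0.954 (range 0.658 to 1.51) and 0.928 in all genes, with 0 of 48 called and 0.0986% of all genes. FLI1 intervals lay wholly above 1 at 22 members (45.8%) and at 28% of the genes that are not members, and wholly below 1 at 9 members (18.8%) and 40.2%. For RUNX1, 5 members (10.4%) lay wholly above 1, as 10.7% of the other genes did, and 6 members (12.5%) below, against 27.4%. *Psmc1*, with the highest FLI1 ratio at the promoter, had the lowest territory ratios, 0.81 (0.741 to 0.886) for FLI1 and 0.658 (0.519 to 0.825) for RUNX1. These ranks are not resolved. The intervals overlap those of *Psmb6* for FLI1, at 0.831 (0.751 to 0.921), and of *Psma7* for RUNX1, at 0.672 (0.523 to 0.853).

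The highest RUNX1 territory ratio was at *Psma3*, where 2438 FLI1, 156 RUNX1 and 566 input reads gave 1.49 for FLI1 and 1.51 (1.26 to 1.8) for RUNX1. *Psmc6* followed with 2061, 137 and 507 reads, 1.4 for FLI1 and 1.48 (1.22 to 1.79) for RUNX1. *Psmg2* came next with 1451, 115 and 472 reads, 1.06 for FLI1 and 1.33 (1.08 to 1.64) for RUNX1. These 3 intervals overlap, so their order is not resolved. *Psma3* and *Psmc6* were high for both factors, whereas *Psmg2* was near 1 for FLI1. The FLI1 and RUNX1 ratios of a gene share its input count, also at *Psmc1*, so they are not independent of each other. The territories of *Psmb8* and *Psmb9*, and those of *Psme1* and *Psme2*, share part of their reads.

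**Figure D4:**
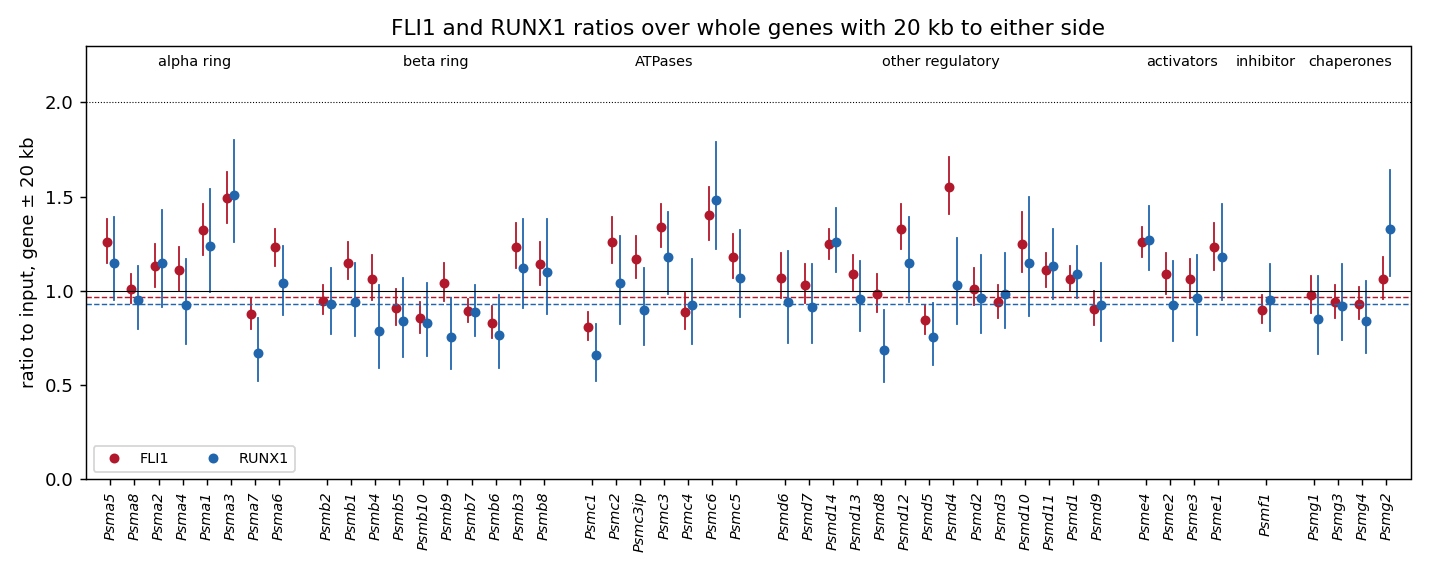
FLI1 and RUNX1 over input from 20 kb before to 20 kb after each gene (vertical axis), by role, with exact 95% intervals that cover counting error. Dashed lines are the medians of all genes (0.966 for FLI1, 0.928 for RUNX1) and the dotted line is the ratio of 2 needed for a call, which no gene shown reaches.

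An ETS form, CCGGAA or CAGGAA on either strand, lay within 50 bp of the FLI1 maximum in 26 of 48 members (54.2%, 95% interval 39.2 to 68.6). The share was 33.4% in all genes, 40.3% in those with CpG-rich promoters and 53.9% in FLI1-called genes. Around the maximum of the input the form was present in 7 members (14.6%) and 13% of all genes, and in windows 500 bp from the FLI1 maximum in 12 of 96 (12.5%) and 11.5%. CCGGAA alone accounted for 18 members (37.5%), against 18.8% of all genes and 39.3% of FLI1-called genes. The share in the subunit genes was thus near that of other genes bound by FLI1. A RUNX form, TGTGGT or TGCGGT, was within 50 bp of the FLI1 maximum in 2 members (4.17%) and 9.69% of all genes.

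In the 300 bases from 250 before to 50 after the TSS, searched on both strands, the ETS forms were present in 60.4% of members and 43% of all genes, and CCGGAA in 43.8% and 19.1%. In genes with CpG-rich promoters these shares were 42.7% and 28.2%, below the intervals of the members' shares (45.3 to 74.2 and 29.5 to 58.8). Among FLI1-called genes they were 53.5% and 36.1%, within those intervals. The RUNX forms were found in 22.9% and 21.6%. TGACNNNGC, the antioxidant response element bound by NF-E2-related factors, was found in 14.6% and 13.1%, the 7 members being *Psmb2*, *Psmb5*, *Psmb6*, *Psmc6*, *Psmd7*, *Psmd9* and *Psmd12*. CCAAT was in 39.6% and 37.9%, the SP form GGGCGG in 60.4% and 47.8%, the YY1 form ATGGCGG in 10.4% and 5.29%, and the NRF1 form GCATGCGC in 8.33% and 3.69%. In genes with CpG-rich promoters the SP form stood at 77.1%, above the members' interval of 45.3 to 74.2. Only 25 of the 48 members belong to that class, and their own SP share was not counted. In FLI1-called genes the SP form stood at 64.9%, inside the interval. The YY1 form, at 8.71% and 9.12%, and the NRF1 form, at 6.03% and 6.05%, lay inside the members' intervals in both classes. The searches for ATGGCGG and for ETS forms can share bases with each other. A match is a description of letters and not a measured site.

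Genes that work with the proteasome but are not subunits by symbol were read the same way at their promoters. Of 8 partners with a match in the annotation, 7 were called for FLI1, with a median of 4.72, where 40.4% of all genes and 62.6% of those with CpG-rich promoters were called. The deubiquitinase gene *Uchl5* had 325 FLI1, 9 RUNX1 and 10 input reads and a ratio of 11.2 (6.03 to 23.6), while that of the other such enzyme, *Usp14*, had 13, 1 and 11 reads and 0.408 (0.169 to 1.01). *Pomp*, the maturation factor of the core, stood at 4.39 (3.04 to 6.55). The ubiquitin genes *Ubb*, at 7.99 (4.78 to 14.4), and *Rps27a*, at 5.62 (3.34 to 10.2), were called. So was *Uba1*, the gene of the ubiquitin-activating enzyme, at 3.09 (1.81 to 5.67).

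Of the regulators of proteasome gene expression 2 of 4 were called, near the 40.4% of all genes. *Nfe2l1*, the factor that raises subunit transcription when the proteasome is inhibited, stood at 4.23 (2.79 to 6.71) and its relative *Nfe2l2* at 5.26 (3.45 to 8.4). *Ddi2* and *Ngly1*, whose products process the *Nfe2l1* protein, had 1.57 (0.85 to 3.12) and 1.89 (1.12 to 3.38). The shuttle and unfoldase list had 5 of 6 called with a median of 2.51, and the antigen presentation list 5 of 6 with a median of 2.93, lists too short to set apart from the 62.6% of genes with CpG-rich promoters. In the latter the transporter gene *Tap2* was not called, at 0.815 (0.503 to 1.36), beside *Tap1* at 2.39 (1.52 to 3.92), whose window overlaps that of *Psmb9*.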

How the data were processed

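FLI1, RUNX1 and input DNA of mature MKs were sequenced, 1 library each. Reads had been aligned by the authors to mm9 (Bowtie); reads were deposited as chromosome, start, end and strand, reduced to unique, non-redundant reads according to the methods; these are positions, with no unit or normalization. The Bowtie version is not given in the sources used here, and SICER 1.1 and MACS 1.4 of the submitters' processing notes were not used. Of 10000 reads, 96.5% (FLI1) and 96.6% (RUNX1) matched the mm9 genome with at most 2 mismatches. In the ChIP files no position and strand was repeated, whereas in the deposited input 3.24% of reads repeated a position and were removed here.

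Reads were shifted by 75 bp and counted with Python 3.11.15, numpy 2.4.6 and scipy 1.17.1. Overlapping records of 1 symbol were merged (19522 records, 19449 genes). Ratios needed at least 5 input reads and have exact (Clopper-Pearson) 95% intervals. Their coverage, the calls and the motif search were tested on simulated data. With 1 library per antibody no p-value was computed. Strongest windows were 200 bp wide in steps of 50 bp.

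The genes, motifs and lists were chosen with earlier results of these data known. Named genes were the catalytic pairs, the highest and lowest FLI1 promoter ratio of each role and the 3 highest RUNX1 territory ratios; others were named after their values were seen. *Paaf1*, *Ubqln2* and *Nlrc5* had no match. 2 listed genes are not reported here. The alternatives changed the window, shift, reference, scaling, depth, TSS, thresholds and motif. Sequences come from the mm9 genome, not from RefSeq tables of another build.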

Additional observations from a re-analysis of the deposited data

How the results depend on the processing

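No paired analysis was possible because each antibody has 1 library, and for the same reason no replicate could be left out. The immunoproteasome quotient, 0.982 with an interval that includes 1, was 1.18 within 500 bp of the TSS. It was 1.11 with the RUNX1 library as reference and 1.01 at the start used by most transcripts. Below 1 were 0.727 with FLI1 thinned, 0.921 with reads at their 5′ end and 0.839 (0.71 to 0.992) with flanks. The last is its only interval that excludes 1, and there the flanks of *Psmb8* and *Psmb9* overlap each other's promoter window. The median RUNX1 territory ratio was 1.06 with 10 kb to either side of the gene and 0.954 with 20 kb, so neither has a direction that holds. With the RUNX1 library as the reference in place of input, the median FLI1 ratio was 1.43 over 39 members with enough RUNX1 reads, and 6 were called, against 11.3% of all genes. With FLI1 thinned to the RUNX1 depth 25 members were called, against 30.7%, so depth limits the FLI1 count. The members' median FLI1 ratio was 2.59 after this thinning. The summed RUNX1 ratio was 2.79 within 500 bp and 1.59 within 2 kb of the TSS. RUNX1 was called at 9 members (12.9% of all genes) with a ratio of at least 3, and at 29 (30.8%) without the condition on the lower bound. For the thresholds the construction of the alternative gives the change. For the others the cause was not tested. Leaving out members that share their start with another gene, added after the data were seen, gave a median FLI1 ratio of 3.19. The territory ratios, the immunoproteasome quotient, the strongest window and the ETS count stayed within their intervals or within 1.5 times their value under the alternatives run for them.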
